A study of Homo sapiens with 32 samples.

Results

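The step from 0.01 to 0.1 µM perfluorooctane sulfonate (PFOS) after 6 weeks was followed in 8 of the 32 libraries of the series, 4 per concentration. PFOS is a persistent fluorinated surfactant, and the question was how the transcriptome differed between the lower pair of its concentrations. All libraries came from HGrC1, an immortalized line of human granulosa cells, the somatic cells that surround the oocyte and make steroid hormones. The cells of each of 4 frozen vials were grown in a flask and split 4 ways. A control had the vehicle alone (0.05% DMSO), and the rest had PFOS at 0.01, at 0.1 and at 1 µM, renewed with every passage. RNA was taken after 6 and again after 12 weeks. The cultures compared here therefore shared the DMSO vehicle, the serum-containing medium with added hormone and the age in culture, and they differed in the PFOS concentration. They model a single established line and not the granulosa cells of several donors.

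Cells keep their proteins folded through molecular chaperones. In the cytosol, HSP70 proteins bind unfolded chains, HSP40 partners such as DNAJB1 deliver those chains, and the transcription factor HSF1 raises the genes of both when unfolded protein accumulates. In the endoplasmic reticulum (ER), BiP (HSPA5) does the same work, and the unfolded protein response and the integrated stress response adjust its supply and the rate of translation. Granulosa cells rely on the ER and on mitochondria for steroid synthesis and for secretion of hormones and matrix.

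Total counts per library lay between 18080396 and 18277671 at 0.01 µM and between 17907057 and 17998837 at 0.1 µM, so the groups did not overlap in depth (exact permutation test, two-sided, p = 0.0286, which is the least possible with 4 libraries against 4), although the ranges are close together. Granulosa cell markers were partly present. In TPM, a level corrected for transcript length and library size, GATA4 lay between 73.6 and 85.6, WT1 between 32.4 and 40.0 and AMH between 11.1 and 16.9 over the 8 libraries, whereas FOXL2 did not exceed 1.19, CYP19A1 (aromatase) was at 0 counts in all 8 and AMHR2 reached at most 3 counts. A count of 0 at this depth allows up to 3 counts. The summed TPM of the 12 granulosa markers in the table was 142 to 153 at 0.01 µM and 136 to 148 at 0.1 µM. Of the epithelial markers, KRT8 lay between 2950 and 3600 TPM, KRT18 at 2750 to 2770 TPM at 0.01 µM and 2410 to 2580 TPM at 0.1 µM, and KRT5 at 0 counts. The 5 epithelial markers summed to 6000 to 6360 TPM at 0.01 µM and 5360 to 5990 TPM at 0.1 µM, without overlap.

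At 0.1 µM, 35 genes differed from 0.01 µM with an edgeR adjusted p at or under 0.05, and these are the genes described as called. They were 0.273% of the 12836 genes tested. Of them, 10 were higher at 0.1 µM (0.0779%) and 25 were lower (0.195%). Only ALB, AHSG, AFP and APOB, all liver transcripts, were also at least 2-fold different (0.0312%), which is the definition of a differentially expressed gene (DEG) used in the study. The other 31 called genes differed by little. The 25 lower genes fell by 9.45% to 17.9% (median 14%), and the 6 higher ones rose by 15.9% to 47.4%. For 29 of the 31, the 4 values at 0.1 µM did not overlap the 4 at 0.01 µM. Such separation fixes the direction in every vial. That 30 of the 31 moved the same way in all 4 vials therefore adds little to it. Separate values held for 7.26% of all genes tested, but the 31 were called on these same libraries, so their separation is a description and no further evidence. The median log2 fold change of all genes tested was −0.00372. In RNA from whole cultures, fewer cells that express a gene and less RNA per cell cannot be told apart. Leaving out single libraries left between 9 and 30 called genes, so the size of the list depends on each library, and with all 32 libraries in a single fit, which shares the spread of both times, 0 genes were called by edgeR (929 had an unadjusted p under 0.05, against 1490 in the fit of the 6-week libraries).

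The largest group among the lower genes consisted of HSP70 chaperones and their partners. Of 21 heat shock chaperone genes tested, 4 were called and all 4 were lower at 0.1 µM, against 0.195% of all genes. They were HSPA1A and HSPA1B, which encode the stress-inducible HSP70, HSPA8, the constitutive HSP70 of the cytosol, and DNAJB1, the HSP40 that activates them. Altogether 19 of the 21 had a negative log2 fold change, 11 of these with an unadjusted p under 0.05, against 6.74% of all genes tested. The median of the list was −0.087. None of the 21 was higher with an unadjusted p under 0.05, against 4.87% of all genes.

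HSPA1A (chr6:31815543-31817942, GRCh38.p14) was measured at 370, 367, 361 and 371 CPM (counts scaled to library size) in vials 1 to 4 at 0.01 µM. The values at 0.1 µM were 331, 328, 323 and 336 CPM. All 4 values at 0.1 µM lay below all 4 at 0.01 µM, with a log2 fold change of −0.16 (SE 0.03, edgeR adjusted p = 0.0234). HSPA1B (chr6:31827738-31830254), its neighbour, was at 303, 311, 323 and 320 CPM at 0.01 µM and at 268, 268, 272 and 281 CPM at 0.1 µM. It fell by 13.3% (log2 fold change −0.21, SE 0.03, edgeR adjusted p = 0.00207). HSPA1A and HSPA1B are nearly identical, so reads may be divided uncertainly between them. Their sum does not depend on that division, and it was 681 ± 7.67 CPM at 0.01 µM and 602 ± 9.95 CPM at 0.1 µM (SD, n = 4 each, exact permutation p = 0.0286, the smallest possible).

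DNAJB1 (chr19:14514769-14560391) was at 151, 149, 152 and 142 CPM at 0.01 µM and at 122, 129, 126 and 134 CPM at 0.1 µM. The groups did not overlap, and the level fell by 14% (log2 fold change −0.22, SE 0.04, edgeR adjusted p = 0.00422). HSPA1B and DNAJB1 remained called whichever of the 8 libraries was left out, with edgeR adjusted p-values up to 0.0285 and 0.0376. HSPA1A remained called in only 3 of these 8 fits (edgeR adjusted p up to 0.127).

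HSPA8 (chr11:123057489-123062462), the most abundant of the 4 in CPM, was at 1640, 1540, 1530 and 1540 CPM at 0.01 µM and at 1350, 1420, 1370 and 1390 CPM at 0.1 µM. It fell by 11.4% (log2 fold change −0.18, SE 0.04, edgeR adjusted p = 0.0421). This call is near the threshold, and it was lost whichever library was left out (edgeR adjusted p up to 0.174). Introns of HSPA8 contain small nucleolar RNAs of the SNORD14 family, and DNAJB1 shares its locus with TECR. How strand entered the counting is not given in the sources used here.

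Members of the list that were not called showed smaller differences. HSF1, the transcription factor that drives these genes, had a log2 fold change of −0.11 (SE 0.04, edgeR adjusted p = 0.221). BAG3, a co-chaperone that links HSP70 to autophagy, had −0.13 (SE 0.04, edgeR adjusted p = 0.15). STIP1 and FKBP4, both co-chaperones of HSP90, each had −0.12 (edgeR adjusted p = 0.237 and 0.209). By contrast, HSPA4 and HSP90AA1 had log2 fold changes of −0.02 and −0.03 (edgeR adjusted p = 0.812 and 0.824). These members were chosen after their values were seen, to show the range within the list.

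**Figure D1:**
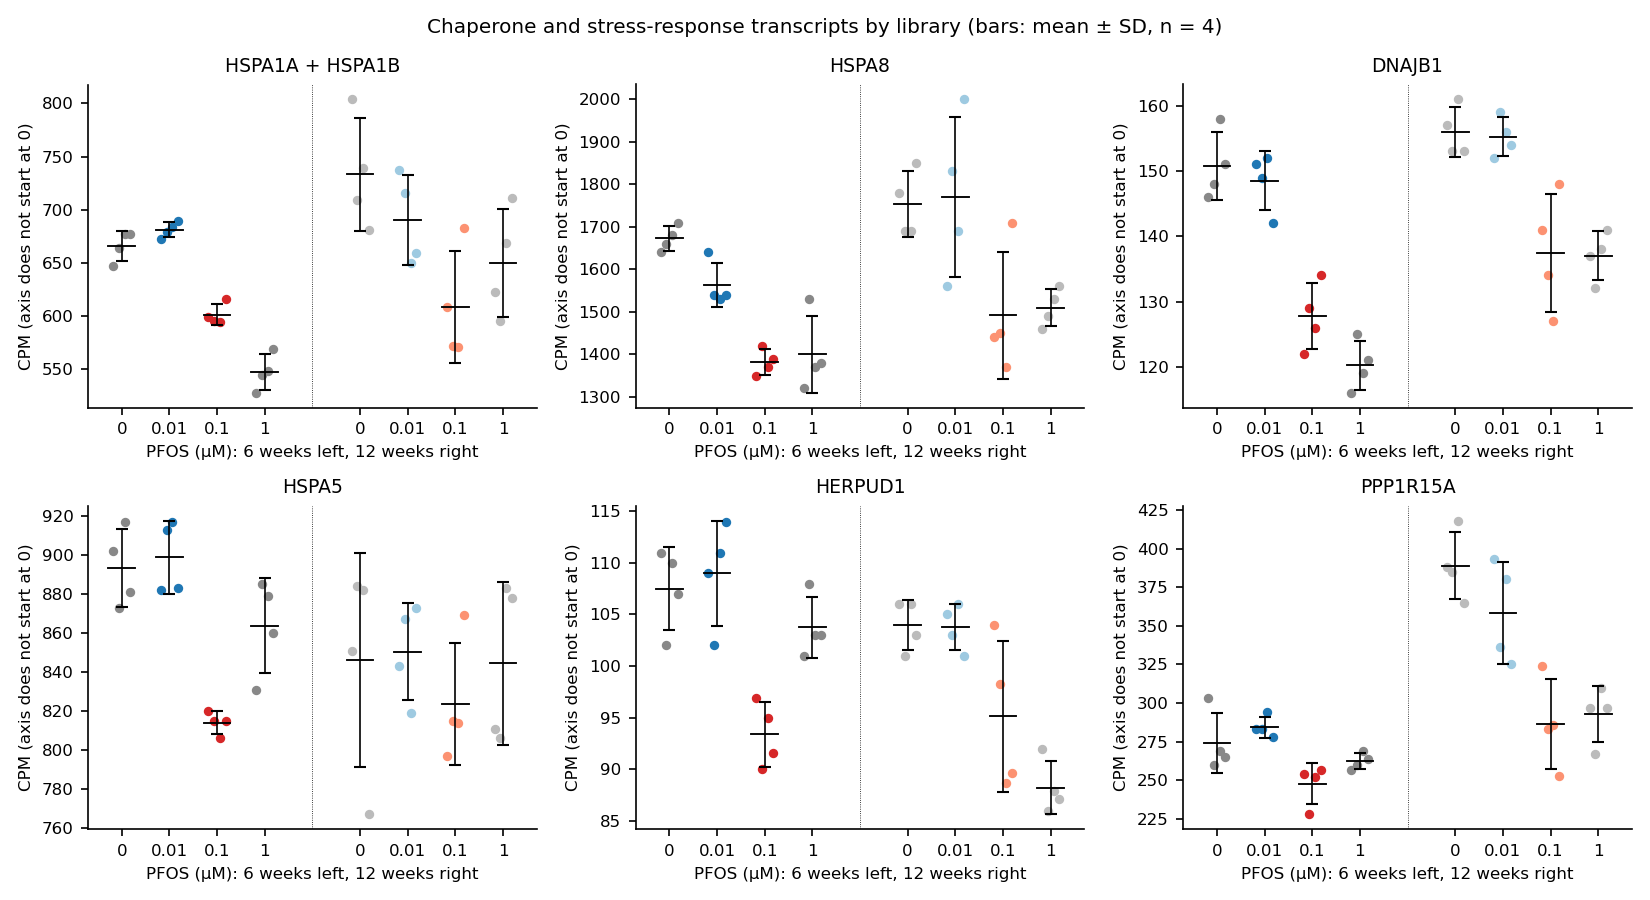
CPM of HSPA1A plus HSPA1B, HSPA8, DNAJB1, HSPA5, HERPUD1 and PPP1R15A in each library (points) by PFOS concentration, with 6 weeks on the left and 12 weeks on the right of each panel; horizontal lines are means and bars are SD over 4 libraries, and the vertical axes do not start at 0. In each panel the 4 red points (0.1 µM, 6 weeks) lie below the 4 blue points (0.01 µM, 6 weeks). At 0.1 µM the SD is larger at 12 weeks than at 6 weeks in every panel. The SD of the other groups is not larger at 12 weeks in every panel.

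The promoters of HSPA1A, HSPA8, HSPA5 and PPP1R15A are shown, chosen because the letters of known stress elements occur in them. Each line gives the 250 bases before the transcript start from RefSeq (GRCh38.p14), 5′ to 3′ on the strand of the gene. HSPA1A lies at chr6:31815293-31815542 (plus strand), HSPA8 at chr11:123062137-123062386 (minus strand), HSPA5 at chr9:125241344-125241593 (minus strand) and PPP1R15A at chr19:48872171-48872420 (plus strand). The HSPA8 window lies inside the interval given for that gene, so its start differs from the outer end of that interval. Capitals mark a heat shock element (GAANNTTC) in HSPA1A and HSPA8, an ER stress response element (CCAAT and CCACG separated by 9 bases) in HSPA5, and a cAMP response element, CRE (TGACGTCA), in PPP1R15A.
HSPA1A: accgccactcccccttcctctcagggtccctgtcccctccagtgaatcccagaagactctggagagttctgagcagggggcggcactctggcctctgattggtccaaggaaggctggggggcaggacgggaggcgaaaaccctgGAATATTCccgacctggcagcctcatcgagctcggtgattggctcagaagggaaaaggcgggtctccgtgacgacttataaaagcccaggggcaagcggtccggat
HSPA8: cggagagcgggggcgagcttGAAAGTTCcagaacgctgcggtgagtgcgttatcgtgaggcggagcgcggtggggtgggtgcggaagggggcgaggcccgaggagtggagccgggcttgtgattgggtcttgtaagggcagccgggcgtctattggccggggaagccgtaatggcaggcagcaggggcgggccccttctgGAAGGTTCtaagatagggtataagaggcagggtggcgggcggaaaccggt
HSPA5: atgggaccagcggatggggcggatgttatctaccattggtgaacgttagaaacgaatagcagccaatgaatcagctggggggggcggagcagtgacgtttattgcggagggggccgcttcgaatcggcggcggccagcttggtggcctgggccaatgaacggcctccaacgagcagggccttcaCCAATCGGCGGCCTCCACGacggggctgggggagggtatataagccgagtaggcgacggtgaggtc
PPP1R15A: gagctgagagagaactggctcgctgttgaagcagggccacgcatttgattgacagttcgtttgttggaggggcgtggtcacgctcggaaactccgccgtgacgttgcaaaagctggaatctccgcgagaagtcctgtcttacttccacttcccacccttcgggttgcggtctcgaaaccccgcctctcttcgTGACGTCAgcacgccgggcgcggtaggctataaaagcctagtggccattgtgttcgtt

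RefSeq windows from 250 bases before to 50 bases after the start were matched for 24 of the 25 lower genes and searched on both strands. The heat shock letters occurred in 6 of the 24 windows (IER5, HSPA1A, HSPA1B, AVPI1, HSPA8 and RSRC2), which is 25%, against 4.71% of the windows of tested genes and 6.77% of all windows. HSPA1A carried them 106 to 99 bases before the start, and HSPA8 at 2 places, 230 to 223 and 50 to 43 bases before it. HSPA1A and HSPA1B, which are nearly identical genes, were counted separately. The window of DNAJB1 did not hold the heat shock letters. The full CRE occurred in 3 of the 24 (AVPI1, PPP1R15A and MAFF), which is 12.5% against 3.25% of tested genes. The spaced ER stress letters occurred only in HSPA5 among the 24, and in 0.133% of tested genes. The EGR core (GCGGGGGCG) occurred in 7 of the 24 (29.2%) against 8.33% of tested genes, and overlaps in composition with the GC box (GGGCGG), which was in 70.8% against 70.6%. The dioxin response core (GCGTG) was in 33.3% of the 24 against 51.0%. A match of letters is a description of the sequence and no measurement of binding.

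In the ER and the integrated stress response, 3 of 30 genes tested were called and all 3 were lower, against 0.195% of all genes. HSPA5 (chr9:125234853-125241343), the BiP chaperone, was at 882, 913, 917 and 883 CPM at 0.01 µM and at 820, 815, 806 and 815 CPM at 0.1 µM. Its groups stood apart, and it fell by 9.45%, the smallest fall of any called gene (log2 fold change −0.14, SE 0.03, edgeR adjusted p = 0.0355). Only 1 of the 8 fits that left out a library kept this call (edgeR adjusted p up to 0.169). HERPUD1 (chr16:56932142-56944864), which helps to clear misfolded protein from the ER membrane, was at 109, 102, 111 and 114 CPM and then at 96.9, 90.0, 95.0 and 91.6 CPM. It fell by 14.3% (log2 fold change −0.22, SE 0.04, edgeR adjusted p = 0.00741).

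PPP1R15A (chr19:48872421-48876058) encodes GADD34, the phosphatase subunit that restores translation by dephosphorylating eIF2α. It was at 283, 283, 294 and 278 CPM at 0.01 µM and at 254, 228, 252 and 257 CPM at 0.1 µM, with no overlap. It fell by 13% (log2 fold change −0.20, SE 0.04, edgeR adjusted p = 0.0355). No fit that left out a library kept this call (edgeR adjusted p up to 0.193).

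Signs within the list were mixed. Of the 30 genes, 17 had a negative and 13 a positive log2 fold change, the median was −0.038, and 8 were lower and 1 higher with an unadjusted p under 0.05, against 6.74% and 4.87% of all genes. DDIT3 (CHOP), the pro-apoptotic factor of the response, had the most negative value, −0.31 (SE 0.07, 18.4 to 23.6 CPM against 15.4 to 18.3), and did not pass (edgeR adjusted p = 0.07). XBP1 had −0.13 (SE 0.03, edgeR adjusted p = 0.129) and ATF4 −0.09 (SE 0.03, edgeR adjusted p = 0.276). HSP90B1 and PDIA6, ER folding factors of high abundance, had 0.01 and 0.00 (edgeR adjusted p = 0.91 and 0.966). These members were chosen after their values were seen.

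**Figure D2:**
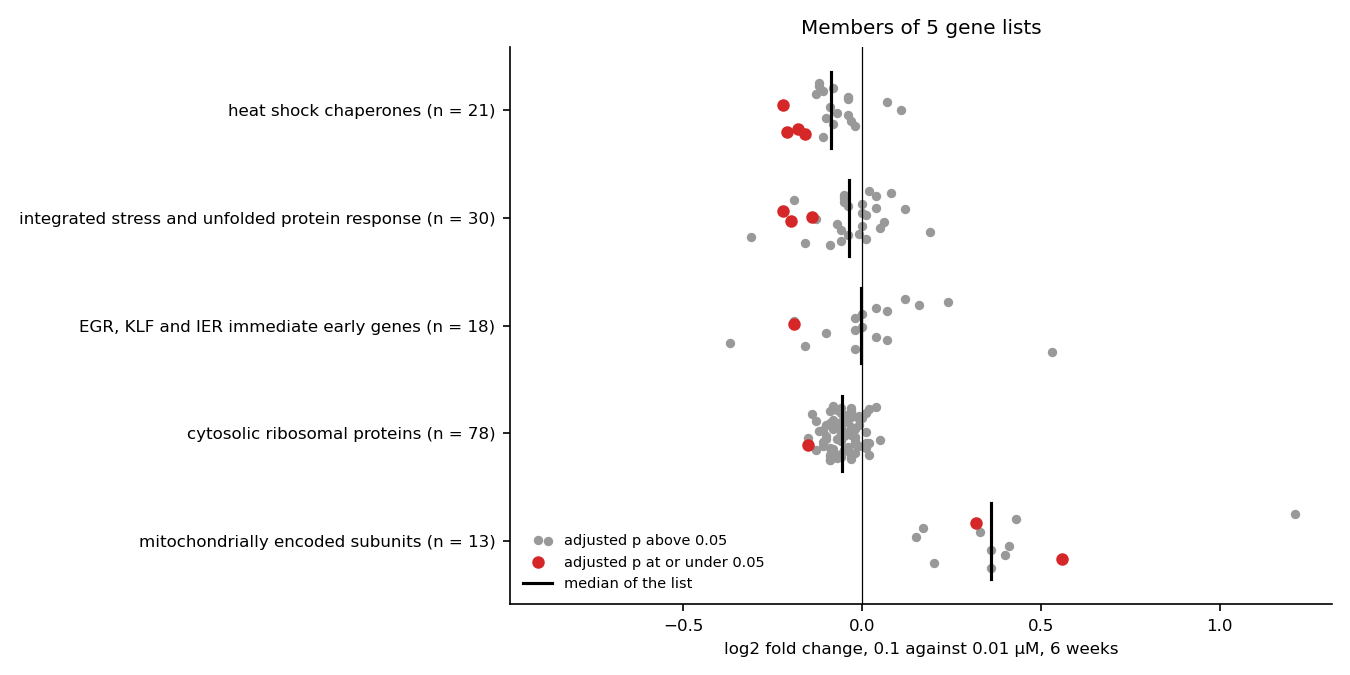
Log2 fold change at 0.1 against 0.01 µM after 6 weeks (horizontal axis) for every tested member of 5 gene lists; red points passed an edgeR adjusted p of 0.05, grey points did not, and black lines are medians. Heat shock chaperones (median −0.087) and cytosolic ribosomal protein genes (median −0.057) lie mostly left of 0, whereas mitochondrially encoded subunits lie to the right (median 0.361) with 1 exception.

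MAFF, CSRNP1 and IER5, which cells can make quickly after a stimulus, were also lower. MAFF, a small MAF protein without an activation domain, was at 118, 126, 115 and 130 CPM at 0.01 µM and at 101, 94.7, 103 and 108 CPM at 0.1 µM (log2 fold change −0.26, SE 0.05, edgeR adjusted p = 0.0435). CSRNP1, an immediate early transcription factor, was at 268, 284, 251 and 275 CPM and then at 230, 231, 241 and 235 CPM (log2 fold change −0.20, SE 0.04, edgeR adjusted p = 0.0132). In both genes the groups stood apart. IER5, an immediate early gene that acts on HSF1, was at 208, 227, 229 and 246 CPM and then at 210, 186, 199 and 201 CPM. Vial 1 of IER5 was not lower at 0.1 µM and the groups overlapped (log2 fold change −0.19, SE 0.04, edgeR adjusted p = 0.0355, exact permutation p = 0.0571).

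PER1, a repressor of the circadian clock that is also induced by glucocorticoid and cAMP, was at 96.0, 118, 118 and 113 CPM at 0.01 µM and at 89.5, 89.7, 97.7 and 91.2 CPM at 0.1 µM. The lowest value at 0.01 µM was below the highest at 0.1 µM (log2 fold change −0.27, SE 0.05, edgeR adjusted p = 0.0235, exact permutation p = 0.0571). PER1 was the only called gene among the 16 genes of the list of cAMP phosphodiesterases and CREB targets, whose median was 0.009. Of all genes tested, 0.195% were called lower. AVPI1, a gene first named for its induction by vasopressin, was at 44 to 51.2 CPM at 0.01 µM and at 37.4 to 43.7 CPM at 0.1 µM (log2 fold change −0.24, SE 0.05, edgeR adjusted p = 0.0355).

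ZC3H12A, IRF1 and MAP2K3 were lower as well. ZC3H12A (Regnase-1), an RNase that degrades cytokine mRNAs, was at 122, 135, 126 and 124 CPM at 0.01 µM and at 106, 99.0, 111 and 104 CPM at 0.1 µM (log2 fold change −0.27, SE 0.05, edgeR adjusted p = 0.00445). IRF1, a transcription factor of the interferon response, was at 50.5, 55.2, 52.8 and 53.0 CPM and then at 43.3, 43.2, 46.3 and 42.7 CPM (log2 fold change −0.27, SE 0.06, edgeR adjusted p = 0.0419). Its call was kept in only 1 of the 8 fits that left out a library (edgeR adjusted p up to 0.168). MAP2K3, the kinase that activates p38, was at 49.1 to 53.9 CPM and then at 42.2 to 46.6 CPM (log2 fold change −0.23, SE 0.05, edgeR adjusted p = 0.0355). All 3 separated the groups.

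Few genes were called in the wider lists to which these regulators belong. The share called lower over all genes tested was 0.195%. IRF1 was the only called gene of 34 interferon-stimulated genes, whose median was 0.017. IER5 was the only called gene of 18 EGR, KLF and IER genes, whose median was −0.002. Within that list, chosen after the values were seen, EGR1 lay at 223 to 266 CPM at 0.01 µM and at 290 to 410 CPM at 0.1 µM, with a log2 fold change of 0.53 (SE 0.17) that did not pass (edgeR adjusted p = 0.253), and KLF4 had −0.37 (SE 0.10, edgeR adjusted p = 0.156). None of the 9 AP-1 subunits, 16 NF-κB genes, 21 chemokines and interleukins or 16 MAP kinase feedback genes was called by edgeR, with medians of −0.06, −0.04, 0.003 and −0.066. At an unadjusted p under 0.05 these 4 lists held 1, 3, 0 and 4 lower genes, against 6.74% of all genes, and 0, 0, 3 and 1 higher genes, against 4.87%. The higher MAP kinase feedback gene was DUSP1, a phosphatase of MAP kinases, with 0.18 (SE 0.06, edgeR adjusted p = 0.28).

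The remaining lower genes have varied roles. HEYL, a transcriptional repressor downstream of Notch, had the largest fall. It was at 41.2, 44.4, 42.8 and 44.6 CPM at 0.01 µM and at 32, 36.7, 36.1 and 37.3 CPM at 0.1 µM, and fell by 17.9% (log2 fold change −0.28, SE 0.05, edgeR adjusted p = 0.019). LMNA, which encodes the nuclear lamins A and C, was at 823, 823, 788 and 806 CPM at 0.01 µM and at 711, 715, 717 and 693 CPM at 0.1 µM. It fell by 12.5% (log2 fold change −0.19, SE 0.03, edgeR adjusted p = 0.00263) and stayed called whichever library was left out (edgeR adjusted p up to 0.0361).

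The others of this set were lower by similar amounts and with separate groups. ARMC5, an adaptor of a ubiquitin ligase, had a log2 fold change of −0.27 (26.6 to 31.3 CPM against 22.7 to 25.3, edgeR adjusted p = 0.0263). THAP4 had −0.23 (43.7 to 47.3 CPM against 37.1 to 39.5, edgeR adjusted p = 0.0263) and RSRC2 −0.18 (77.2 to 82.9 CPM against 68.8 to 72.5, edgeR adjusted p = 0.0235). NHP2, a protein of the telomerase and small nucleolar RNA particles, had −0.20 (108 to 118 CPM against 90.0 to 107, edgeR adjusted p = 0.0355). NDUFAF8, an assembly factor of respiratory complex I, had −0.22 (28.2 to 29.7 CPM against 24.4 to 25.4, edgeR adjusted p = 0.0394). ST6GALNAC6, a sialyltransferase, had −0.17 (63.2 to 68.3 CPM against 55.6 to 59.6, edgeR adjusted p = 0.0435). The calls of NDUFAF8 and ST6GALNAC6 were lost whichever library was left out (edgeR adjusted p up to 0.157 and 0.169).

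RPL19, a protein of the large ribosomal subunit, was the only called gene of 78 cytosolic ribosomal protein genes, against 0.195% of all genes called lower. It was at 707, 715, 775 and 733 CPM at 0.01 µM and at 664, 644, 668 and 671 CPM at 0.1 µM (log2 fold change −0.15, SE 0.03, edgeR adjusted p = 0.0435). Its call was kept in only 1 of the 8 fits that left out a library (edgeR adjusted p up to 0.203). The other members lay close together: 68 of the 78 had a negative log2 fold change, the range was −0.15 to 0.05, the median was −0.057, and 21 were lower with an unadjusted p under 0.05, against 6.74% of all genes. Ribosomal protein genes have many processed pseudogenes, with which reads can be shared. Among 76 nuclear genes of the respiratory chain, none was called, 56 had a negative value, 11 of them with an unadjusted p under 0.05 (against the same 6.74%), and the median was −0.029.

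Genes encoded in mitochondrial DNA went the other way. Of 13 tested, 2 were called and both were higher, against 0.0779% of all genes. A positive log2 fold change was found for 12, with an unadjusted p under 0.05 for 11 of these against 4.87% of all genes, and the median was 0.361. MT-CYTB (mitochondrial DNA 14747 to 15887), the catalytic subunit of complex III, was at 5020, 5030, 5660 and 4890 CPM at 0.01 µM and at 5850, 6320, 6470 and 7060 CPM at 0.1 µM. It rose by 24.8% (log2 fold change 0.32, SE 0.06, edgeR adjusted p = 0.0132). MT-ND3 (10059 to 10404), a membrane subunit of complex I, was at 360, 282, 381 and 307 CPM and then at 451, 443, 543 and 521 CPM, which was the largest rise of a called gene outside the liver transcripts, 47.4% (log2 fold change 0.56, SE 0.10, edgeR adjusted p = 0.0435). Only 1 of the 8 fits that left out a library kept the call of MT-ND3 (edgeR adjusted p up to 0.151). MT-ATP8, a subunit of the ATP synthase named after its value was seen, had a larger log2 fold change that did not pass, 1.21 (SE 0.36, 17.1 to 39.6 CPM against 52.0 to 75.8, edgeR adjusted p = 0.231).

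The exception was MT-ND6, the only subunit encoded on the light strand, at 13.7 to 20.3 CPM at 0.01 µM and 5.86 to 11.4 CPM at 0.1 µM (log2 fold change −0.88, SE 0.38, edgeR adjusted p = 0.411). It was named after its value was seen. Mitochondrially encoded genes together took 4.74, 4.97, 5.41 and 4.48% of the counts at 0.01 µM and 5.52, 5.66, 6.10 and 6.71% at 0.1 µM, with no overlap (exact permutation p = 0.0286, the smallest possible). These transcripts have nuclear copies in the genome, with which reads can be shared. Without the mitochondrially encoded genes in the counts, 31 genes were called.

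Outside mitochondrial DNA and the liver transcripts, 4 genes were higher. VMP1 (chr17:59707654-59842255), an ER membrane protein needed to form autophagosomes, was at 76.5, 72.6, 76.1 and 68.1 CPM at 0.01 µM and at 85.7, 89.3, 87.3 and 81.0 CPM at 0.1 µM. It rose by 17% (log2 fold change 0.23, SE 0.04, edgeR adjusted p = 0.00741) and stayed called whichever library was left out (edgeR adjusted p up to 0.0494). The precursor of the microRNA miR-21 overlaps the end of VMP1, so its reads can enter this count.

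WSB1, a substrate adaptor of a ubiquitin ligase, was at 76.8, 81.7, 84.4 and 85.3 CPM and then at 103, 91.4, 94.8 and 90.7 CPM (log2 fold change 0.21, SE 0.05, edgeR adjusted p = 0.0355). AKAP11, an anchor of protein kinase A, was at 30.2 to 34.6 CPM and then at 37.7 to 40.1 CPM (log2 fold change 0.25, SE 0.05, edgeR adjusted p = 0.0263). FGD6, an exchange factor for the small GTPase CDC42, was at 27.3 to 29.4 CPM and then at 31.1 to 34.4 CPM (log2 fold change 0.22, SE 0.05, edgeR adjusted p = 0.0435). In each of the 4 genes the groups stood apart.

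The 4 DEGs were transcripts of hepatocytes and fetal liver, present at 0.1 µM and not detected at 0.01 µM. ALB (albumin) had 0 counts in each of the 4 libraries at 0.01 µM and 35 to 50 counts at 0.1 µM. AHSG (fetuin-A) had 0 and 23 to 36 counts, AFP (alpha-fetoprotein) 0 and 16 to 30, and APOB (apolipoprotein B) 0 and 11 to 17. Set against the 3 counts per library that a count of 0 allows, they were at least 13.9-fold, 10.0-fold, 8.5-fold and 4.67-fold higher at 0.1 µM. Their edgeR adjusted p-values ranged from 1.71e-09 (ALB) to 0.000214 (APOB). These genes passed the filter on low counts only through groups in which they were present, so the p-values and the calls add nothing to the counts, and none was tested when at least 10 counts were required in every library. Their levels were low throughout, at 1.75 ± 0.249 TPM for ALB at 0.1 µM (SD, n = 4). Of 22 liver transcripts in the table, 12 were at 0 in all 4 libraries at 0.01 µM, of which 4 were above 0 in all 4 libraries at 0.1 µM, and 3 stayed at 0 in both groups. GPC3 (0 to 1 against 4 to 9 counts) and AMBP (0 against 0 to 8 counts) were below the filter and not tested.

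The groups therefore differed in liver transcripts, in the mitochondrial share, in the summed TPM of KRT8 and KRT18 and in depth at the same time. KRT18 itself did not pass (log2 fold change −0.12, SE 0.03, edgeR adjusted p = 0.135), nor did KRT8 (−0.08, SE 0.04, edgeR adjusted p = 0.456). The epithelial genes CDH1 and MUC1 had positive values, 0.10 and 0.15 (edgeR adjusted p = 0.88 and 0.51). The summed TPM of the 5 hepatocyte markers was 0 in every library at 0.01 µM and 3.87 to 5.54 at 0.1 µM, with TTR between 0 and 0.24. ALB, AFP, AHSG, APOB, GPC3 and AMBP summed to 0 to 1 count per library in the control and at 0.01 µM after 6 weeks, to 89 to 141 at 0.1 µM and to 88 to 115 at 1 µM. After 12 weeks all 4 groups held them, with 81, 115, 919 and 88 counts in control vials 1 to 4 and 72 to 131 at 0.01 µM. The 919 came from vial 3 alone. The part of these transcripts and markers in the other differences was not tested.

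**Figure D3:**
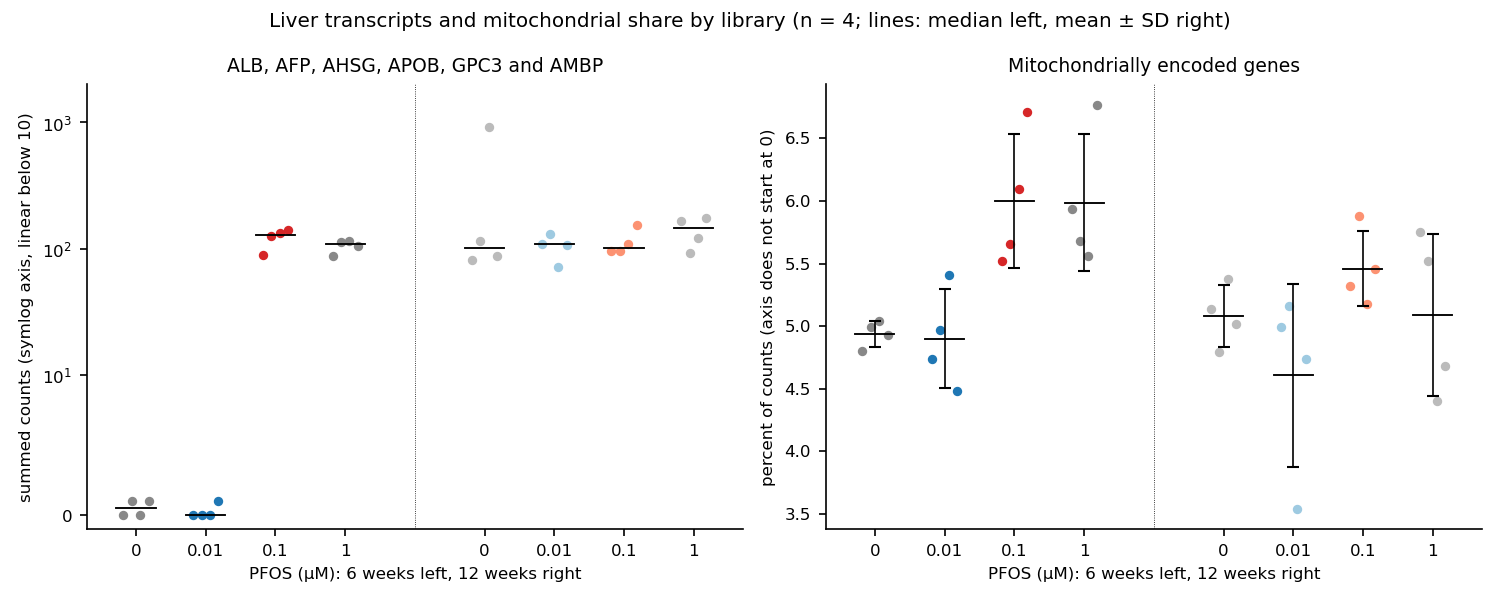
Left, summed counts of 6 liver transcripts per library on a symlog axis (linear below 10), with lines at the median; right, percentage of counts in mitochondrially encoded genes with mean ± SD, on an axis that does not start at 0; both by PFOS concentration, 6 weeks left and 12 weeks right of the dotted line. After 6 weeks the liver transcripts are near 0 in the control and at 0.01 µM and near 100 counts at 0.1 and 1 µM, and the mitochondrial share is 5.52 to 6.71% at 0.1 µM against 4.48 to 5.41% at 0.01 µM.

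The size of the change also followed the base composition of the transcripts. GC content of the longest annotated transcript was known for 12690 of the genes tested, all 31 called genes outside the liver transcripts included. From the fifth of genes with the lowest GC content to the fifth with the highest, the median log2 fold change went from 0.042 over 0.013, −0.012 and −0.027 to −0.042, and over genes, which are not independent replicates, Spearman's rho was −0.326. The 25 lower genes had a median GC content of 58.8% (41.1 to 64.6%), the 6 higher ones 40.1% (37.3 to 46.3%) and all genes tested 47.9%. A fit with the GC trend of each library removed, added after these values were seen, called 22 genes. Of the 31 called genes outside the liver transcripts, 12 remained, among them DNAJB1, HSPA1B, HSPA8, HSPA5, HERPUD1, HEYL, LMNA, ZC3H12A, RSRC2, VMP1 and MT-CYTB, together with the 4 liver transcripts. All 35 kept their direction. The median of the heat shock chaperones was −0.094 in that fit, and their median GC content was 48.1%. The called ones among them had a GC content of 59.8% (HSPA1A), 58.8% (HSPA1B), 56.3% (DNAJB1) and 45.7% (HSPA8). HSPA1A, PPP1R15A, IER5, MAFF, IRF1, PER1 and MT-ND3 were among those that no longer passed (edgeR adjusted p = 0.101, 0.153, 0.0617, 0.224, 0.0812, 0.11 and 0.078), with log2 fold changes of −0.13, −0.17, −0.18, −0.22, −0.25, −0.23 and 0.53 in that fit. With the vials as a block in addition, IRF1, IER5 and MT-ND3 passed (edgeR adjusted p = 0.0229, 0.0315 and 0.0229).

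The same genes were followed in 2 comparisons between other groups. The first was the same step after 12 weeks, in libraries from the same cultures, continued. There edgeR called 0 of 12742 genes, with 1891 at an unadjusted p under 0.05, whereas DESeq2 called 145 and edgeR with the vials as a block called 13. Of the 25 genes lower after 6 weeks, 23 had a negative log2 fold change after 12 weeks too, 14 of them with an unadjusted p under 0.05, against 8.54% of all genes tested there. None was higher with an unadjusted p under 0.05. Their median was −0.22 after 6 and −0.15 after 12 weeks. PPP1R15A had −0.32 (SE 0.07), IRF1 −0.35 (SE 0.10), HSPA1B −0.25 (SE 0.06), HSPA8 −0.25 (SE 0.07) and DNAJB1 −0.17 (SE 0.05) after 12 weeks. HSPA5, PER1, ZC3H12A and ARMC5 were between −0.06 and 0.03. Between all genes of the 2 steps, 57.4% had the same sign and Spearman's rho was 0.196. The mitochondrial share differed in this step as well (3.54 to 5.16% against 5.18 to 5.88%), but the median log2 fold change did not follow GC content.

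Of the 6 higher genes, 5 were also higher after 12 weeks, 2 of them with an unadjusted p under 0.05 (WSB1 with 0.24 and MT-CYTB with 0.23), against 6.3% of all genes. VMP1 was the exception. It was at 67.8, 68.9, 75.5 and 78.3 CPM at 0.01 µM after 12 weeks and at 64.5, 62.1, 67.1 and 64.1 CPM at 0.1 µM, so that the groups stood apart in the opposite order (log2 fold change −0.17, SE 0.06, edgeR adjusted p = 0.205, exact permutation p = 0.0286, the smallest possible). The difference between the steps at 6 and 12 weeks, tested as an interaction, was 0.40 (SE 0.07, edgeR adjusted p = 0.0268), and VMP1 was the only gene of 12988 (0.0077%) to pass. With single libraries left out, it passed in 6 of 16 fits (edgeR adjusted p 0.00409 to 0.162).

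The second comparison was 1 µM PFOS against the control after 6 weeks, whose groups differed in liver transcripts and mitochondrial share in the same way as those at 0.1 and 0.01 µM. It compares other libraries but takes its filter and its estimate of the spread from the same fit. Here edgeR called 36 genes (0.28%), and 32 when only the libraries of the compared groups were fitted. Of the 25 lower genes, 20 were negative, 14 of these with an unadjusted p under 0.05 (7.53% of all genes tested) and 8 were called. DNAJB1 (−0.33, SE 0.04), HSPA1B (−0.30, SE 0.03), HSPA1A (−0.27, SE 0.03), HSPA8 (−0.26, SE 0.04), ARMC5 (−0.26, SE 0.06), ZC3H12A (−0.24, SE 0.04) and CSRNP1 (−0.21, SE 0.04) were among those called, with edgeR adjusted p-values from 4.57e-06 to 0.0316. IRF1, IER5, RPL19, AVPI1 and NDUFAF8 lay between 0.01 and 0.05. All 6 higher genes were positive, 3 with an unadjusted p under 0.05 (6.15% of all genes), and MT-CYTB and WSB1 were called. Over all genes 63.6% had the same sign in both comparisons and Spearman's rho was 0.332.

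**Figure D4:**
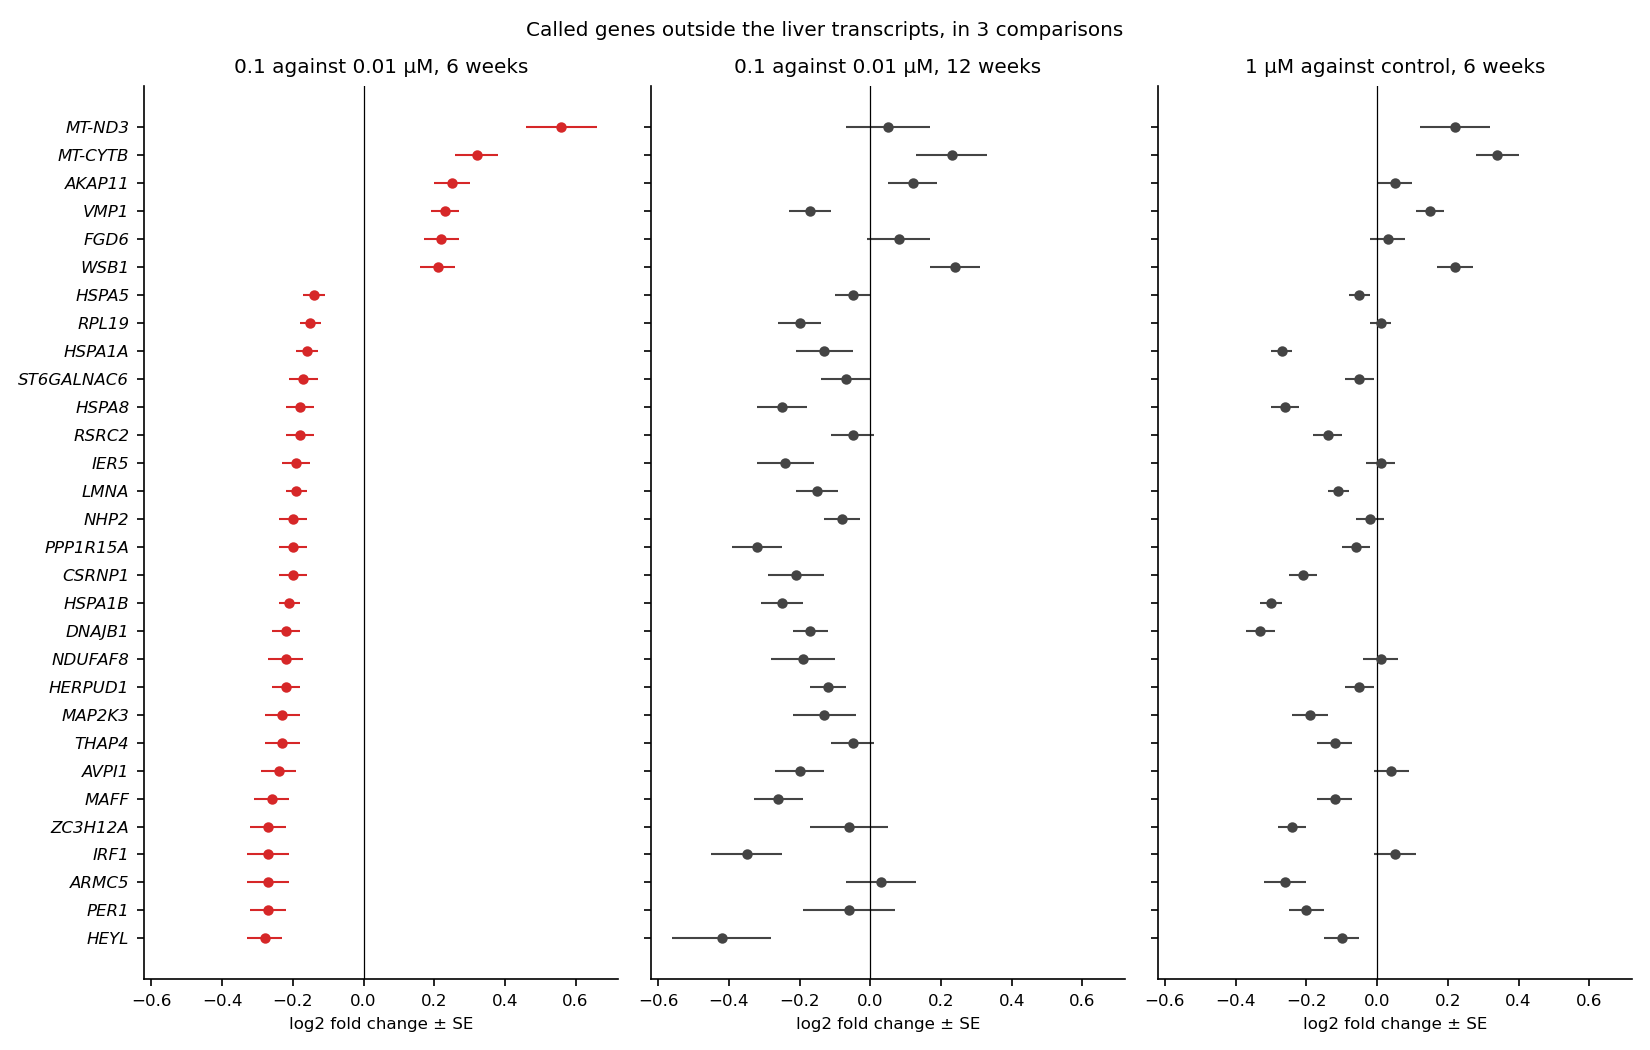
Log2 fold change ± SE (horizontal axis) of 30 called genes outside the liver transcripts, ordered by their change at 0.1 against 0.01 µM after 6 weeks (left, red), in the same step after 12 weeks (middle) and at 1 µM against the control after 6 weeks (right). HSPA1A, HSPA1B, HSPA8 and DNAJB1 lie left of 0 in all 3 panels, and VMP1 lies right, left and right of 0 (0.23, −0.17 and 0.15).

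In the control after 6 weeks, the mean was nearer to that at 0.01 µM than to that at 0.1 µM for all 25 lower and all 6 higher genes. These genes were called for their difference between the same libraries at 0.1 and 0.01 µM. The position of the control is therefore a description and no further evidence. At 1 µM the mean was nearer to 0.1 µM for 15 of the 25 lower genes and for all 6 higher ones. HSPA1A plus HSPA1B was at 666 ± 14.1 CPM in the control, 681 ± 7.67 at 0.01 µM, 602 ± 9.95 at 0.1 µM and 548 ± 17.1 at 1 µM (SD, n = 4 each), with no overlap between 0.01, 0.1 and 1 µM. HSPA5, by contrast, was at 831 to 885 CPM at 1 µM, between its values at 0.1 and 0.01 µM and overlapping the latter.

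Of 41 lists of genes, cell type markers included, 33 held no called gene. Among them, none of 22 steroidogenic genes was called by edgeR (3 lower and 0 higher with an unadjusted p under 0.05, median −0.021). The same held for 20 granulosa identity genes (2 lower and 2 higher, median −0.021). It also held for 49 cell cycle genes (3 and 1, median −0.024) and 24 collagen chains (2 and 0, median −0.024). Of all genes tested, 6.74% were lower and 4.87% higher at that p. Of 33 genes of cholesterol and fatty acid synthesis, 29 were positive with a median of 0.065, and 2 had an unadjusted p under 0.05 (4.87% of all genes tested). Of 36 glycolysis and hypoxia-inducible genes, 29 were negative and 10 of these had an unadjusted p under 0.05, against 6.74% of all genes (median −0.048). Among 10 aryl hydrocarbon receptor genes the median was −0.102 with 3 lower at an unadjusted p under 0.05, and among 19 NRF2 targets it was −0.034 with 1 lower, against the same share. TIPARP, a target of the aryl hydrocarbon receptor named after its value was seen, was at 111 to 136 CPM at 0.01 µM and at 92.1 to 99.5 CPM at 0.1 µM (log2 fold change −0.37, SE 0.07, edgeR adjusted p = 0.0566). DESeq2, the edgeR fit with the vials as a block and the GC-corrected fit each called 1 gene of the aryl hydrocarbon receptor list. DESeq2 and the block fit each called 1 of the SMAD response genes. Among these fits, DESeq2 alone called 1 gene each of the cell cycle, chemokine and interleukin, NR4A receptor and epithelial marker lists. In lists that held called genes, DESeq2 called 8 of 13 mitochondrially encoded genes and 6 of 78 cytosolic ribosomal protein genes.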

How the data were processed

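Poly(A) RNA was sequenced as stranded libraries from 8 groups of 4 cultures of HGrC1 cells, and the 16 libraries taken after 6 weeks entered the main model. The authors' deposited tables give expected counts and TPM per gene. The submitters' processing notes name HISAT2 2.0.4, Bowtie2 2.2.5 and RSEM 1.2.8, without parameters. The labels name estradiol and the study's methods name testosterone as the hormone in the medium. Of 47137 gene entries, 18583 had values, and no column was left unmapped.

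The deposited expected counts were rounded to whole numbers and tested with edgeR 4.0.16 (R 4.3.3, limma 3.58.1), with TMM scaling, filterByExpr and robust quasi-likelihood dispersion. P-values were adjusted by Benjamini-Hochberg over all genes tested, and an adjusted p at or under 0.05 was called. CPM were computed from TMM-scaled library sizes. Exact two-sided permutation tests used log2(CPM + 1). DESeq2 1.42.0 and other settings were alternatives. Promoter windows, positions and names came from RefSeq (GRCh38.p14), and GC content from the longest GENCODE v44 transcript. All called genes are named except 1, which is counted but not reported here, and other members of lists were chosen after their values were seen. The gene lists, and the comparison itself, were chosen with earlier results of these data known. The steps across genes were tested on simulated data.

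Replicates are separate vials of 1 cell line. The labels state that the flask of each vial was divided into the 4 groups, so replicate numbers pair the libraries, and same-numbered libraries of the compared groups deviated together with correlations of 0.0462 to 0.118. No libraries of a group were identical (12 pairs). A floor is 3 counts and covers counting error only. SE came from the fitted model and SD from the libraries of a group, so both also include variation between libraries.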

Additional observations from a re-analysis of the deposited data

Results flagged for a closer look

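HSPA8 was high in vial 1 at 0.01 µM, at 1640 CPM against 1530, 1540 and 1540 CPM in the other vials. IRF1 was high in vial 3 at 0.1 µM, at 46.3 CPM against 42.7, 43.2 and 43.3 CPM. In each case the gap to the nearest library exceeded Dixon's critical value for 4 samples. Of 72 sets of 4 libraries examined, these were the 2 that did, and chance alone exceeds it in about 1 of 20. The change of VMP1 from 0.01 to 0.1 µM differed between 6 and 12 weeks by 0.40 on the log2 scale (edgeR interaction test, adjusted p = 0.0268).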

How the results depend on the processing

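The count of 35 called genes was 17 with at least 10 counts required in every library, 75 with DESeq2, 0 with all 32 libraries in the fit and 22 with the GC correction, added after the data were seen. Without single libraries it was 9 to 30. The 9 came without vial 2 at 0.01 µM, and 12, 13, 17, 18, 21 and 23 without 0.1 µM vial 2, 0.01 µM vial 4, 0.1 µM vials 1, 3 and 4 and 0.01 µM vial 3. Within 1.5 times of 35 were RLE scaling (32), no filter (34), the 2 groups alone (29), no mitochondrially encoded genes (31) and the GC correction with the replicate block (40). With the vials as a replicate block 47 genes were called, including all 35. The 4 DEGs became 0, 1 and 0 with the stricter filter, DESeq2 and all libraries, and 4 to 5 without single libraries. DESeq2 gave the liver transcripts no adjusted p. After 12 weeks the 0 calls became 8 without a filter, 145 with DESeq2, 415 with all libraries, 13 with the block and 0 to 642 without single libraries, the 642 without 0.01 µM vial 1. The interaction's single call became 5 with DESeq2, 5 with the compared groups alone and 0 to 141 without single libraries. At 1 µM against the control, 36 became 129 with DESeq2, 5 with all libraries, 66 with the block and 22 to 122 without single libraries. Of 381 alternative values for single genes, 215 kept direction and call, 166 lost the call and 0 reversed. The cause of these shifts was not tested. Transcripts at or under 3 counts per library could not be told from 0 at this depth.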
